A study of Mus musculus with 6 samples.

Results

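This account covers 10 genes of the blood vessel lining of the bone marrow, Cdh5, Pecam1, Kdr, Tek, Tie1, Esam, Emcn, Clec14a, Eng and Stab2, out of 46603 genes listed for each library. They were chosen by name as sinusoidal and vascular endothelial genes, by a rule that sets no measured value but was made with earlier results of these data known, and each matched 1 Ensembl gene in the GENCODE annotation of GRCm38. Expression was measured by RNA sequencing in unsorted marrow of C57/Bl6 mice aged 8 months, 3 labelled NM1 KO, with nuclear myosin 1 knocked out, and 3 labelled NM1 WT, wild type. Nuclear myosin 1 is the nuclear isoform of the motor protein encoded by Myo1c. The labels do not say whether the knockout is limited to any cell type, and no other allele, agent or treatment is given for either group. Each library held the marrow spun from the femurs and tibiae of 1 mouse, after muscle, connective tissue and the bone ends had been removed. The comparison asks whether vessel genes differ between the genotypes, in a study whose title concerns platelets and immunity.

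Marrow is drained by sinusoids, wide thin-walled vessels through which new blood cells and platelets enter the circulation, and is fed by arterioles. Their endothelial cells are held together by adhesion molecules, among them VE-cadherin (Cdh5), PECAM-1 (Pecam1) and ESAM (Esam), and they are maintained by vascular endothelial growth factor (VEGF) signalling through VEGFR2 (Kdr) and by angiopoietin signalling through Tie2 (Tek). Megakaryocytes sit against the sinusoids, and several endothelial surface proteins are shared with blood cells. Of the 10 genes, Pecam1 and Esam are also made by megakaryocytes and platelets. Tek, Emcn, Esam, Eng and Tie1 are also made by blood stem and progenitor cells, while Cdh5, Kdr, Clec14a and Stab2 are mostly kept to endothelium in adult marrow.

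Library totals ran from 15145052 to 22618802 counts, with the 3 NM1 KO libraries all above the 3 NM1 WT libraries. Levels are counts per 1000000 counts of the library (CPM) after scaling by trimmed-mean (TMM) factors, and 1 CPM stood for 14.7 to 22.98 counts. Low counts were nearly all even (2417 genes with a count of 2 and 6 with a count of 1 in NM1 KO 1), so a read pair appears to count as 2. Y-linked genes were present in NM1 KO 1, NM1 KO 2 and NM1 WT 2 and at 0 in the other 3 libraries. NM1 WT 2 correlated better across genes with NM1 KO 1 (r = 0.969) than with NM1 WT 1 (0.957) or NM1 WT 3 (0.957). Myo1c had 64.2 ± 8.28 CPM in NM1 KO against 102 ± 12.4 CPM in NM1 WT (SD, n = 3), and its log2 fold change was -0.67 (SE 0.14, adjusted p = 0.0516). A gene-level count adds up all Myo1c isoforms and does not check the loss of the nuclear one.

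Esam rose in NM1 KO marrow, from 17.4 ± 1.54 to 39.4 ± 10.4 CPM (SD, n = 3). Clec14a, from 0.338 ± 0.0616 to 3.00 ± 1.18 CPM, also passed the test, but the filter on low counts kept it through its NM1 KO libraries alone. The other 8 genes did not pass, and all 10 were kept by the filter. All 10 log2 fold changes of NM1 KO over NM1 WT were positive, from 0.05 for Pecam1 to 3.12 for Clec14a, with a median of 0.86, and of 0.77 without Clec14a. Over all 15069 tested genes 50.2% were positive and the median was 0.00. The 2 calls among 10 genes compare with 117 calls among all tested genes, 0.776%, or 0.591% when only rises are counted. Without Clec14a the count is 1 of 9. All calls use edgeR's quasi-likelihood test with genotype as the only term and a Benjamini-Hochberg adjusted p below 0.05 over all tested genes. At an unadjusted p below 0.05 there were 6 of the 10 genes, and 2525 of all tested genes (16.8%). DESeq2 called 6 of the 10 (Kdr, Tek, Tie1, Esam, Clec14a and Stab2) against 5.27% of all tested genes, edgeR's likelihood ratio test 4 against 3.59%, and limma-voom 0 against 0.246%. Kdr was at the threshold in DESeq2 (adjusted p = 0.05 after rounding) and Stab2 close to it (0.0445). Clec14a is included in the counts at the unadjusted p, in DESeq2 and in the likelihood ratio test. In bulk marrow, a change in the number of endothelial cells and a change in RNA per cell cannot be told apart.

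**Figure D1:**
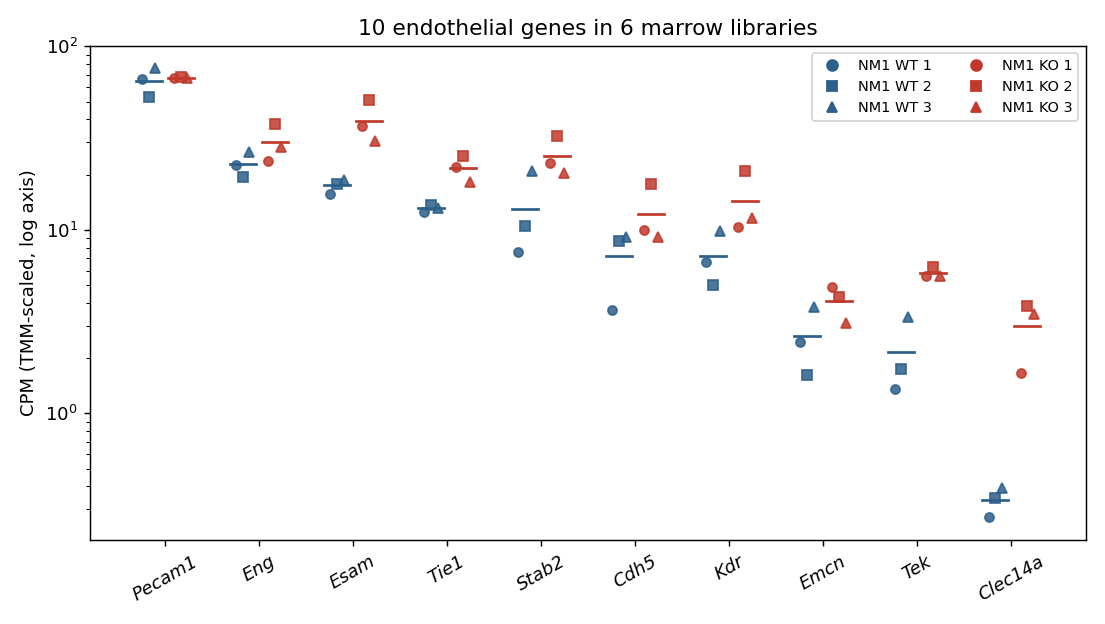
Level of each of the 10 endothelial genes in CPM (log axis) in every library, NM1 WT in blue and NM1 KO in red, with the replicate number shown by the symbol and the group mean by a line. All 3 NM1 KO values lay above all 3 NM1 WT values for Esam, Tie1, Kdr, Tek and Clec14a, and the groups overlapped for the other 5 genes. Clec14a was kept by the filter on low counts through its NM1 KO libraries alone.

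For 5 of the 10 genes, Kdr, Tek, Tie1, Esam and Clec14a, the lowest NM1 KO value lay above the highest NM1 WT value, and for 0 the reverse held. Clec14a was kept by the filter through its NM1 KO libraries alone, so its lack of overlap was set by the filter. Among all tested genes 10.8% had NM1 KO above NM1 WT with no overlap. The highest library of each genotype recurred from gene to gene. NM1 KO 2 was the highest NM1 KO library for 9 genes, the exception being Emcn, and NM1 WT 3 was the highest NM1 WT library for 9 genes, the exception being Tie1. The lowest library varied, with NM1 WT 1 lowest of its group for 6 genes and NM1 WT 2 for 4.

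Promoter sequence was at hand for 7 of the 10 genes, in the RefSeq windows of 250 bases before to 50 after the start on GRCm38.p6. ETS factors such as ERG and FLI1 are central to endothelial gene expression, so the ETS core letters GGAAG were searched on both strands. They occurred in 6 of the 7 windows, against 71.4% of all 32851 windows of that length, and a match is a description of the letters and no measure of binding. Tie1 held 7 matches, Eng and Emcn 2 each, Kdr, Stab2 and Clec14a 1 each, and Tek 0, where the median window held 1. The GATA letters AGATAA occurred in the Tek window alone (11.2% of all windows) and the forkhead letters GTAAACA in 0 of the 7 (3.65% of all windows). The stretches before the annotated start are shown for 3 genes without overlap between the genotypes, 5′ to 3′ on the strand of the gene, with the ETS core letters in capitals. They cover chr12:58269291-58269508 (minus strand) for Clec14a, chr5:75978459-75978705 (minus strand) for Kdr and chr4:94739039-94739288 (plus strand) for Tek, which has no capitals because it holds no match.
Clec14a: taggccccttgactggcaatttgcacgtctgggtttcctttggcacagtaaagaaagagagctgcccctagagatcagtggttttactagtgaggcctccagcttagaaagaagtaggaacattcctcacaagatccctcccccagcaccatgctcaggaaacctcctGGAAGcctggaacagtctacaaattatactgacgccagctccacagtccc
Kdr: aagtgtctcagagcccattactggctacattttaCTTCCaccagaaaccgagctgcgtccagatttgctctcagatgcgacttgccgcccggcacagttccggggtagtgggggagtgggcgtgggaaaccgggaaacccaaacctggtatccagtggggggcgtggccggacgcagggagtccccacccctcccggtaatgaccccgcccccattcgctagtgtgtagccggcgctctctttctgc
Tek: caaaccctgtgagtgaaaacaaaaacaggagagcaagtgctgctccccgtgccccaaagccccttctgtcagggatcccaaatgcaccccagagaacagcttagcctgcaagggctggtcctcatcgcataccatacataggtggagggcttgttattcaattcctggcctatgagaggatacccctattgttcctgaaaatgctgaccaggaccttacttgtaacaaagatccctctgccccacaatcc

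The junction genes of the set had unlike fold changes. Esam (ENSMUSG00000001946, chromosome 9, 37528078 to 37538319, plus strand) encodes an immunoglobulin-like adhesion molecule of endothelial tight junctions and platelets. It had 36.6, 51.0 and 30.7 CPM in NM1 KO 1 to 3 and 15.7, 17.8 and 18.8 CPM in NM1 WT 1 to 3. The NM1 WT values lay close together and the lowest NM1 KO value stood well above them. The log2 fold change was 1.17 (SE 0.20, adjusted p = 0.0267), a 2.26-fold rise. The call was lost without NM1 KO 2 (adjusted p = 0.0741), NM1 WT 1 (0.131) or NM1 WT 3 (0.0649), with log2 fold changes of 0.95, 1.11 and 1.22. It was also lost in limma-voom (log2 fold change 1.14, adjusted p = 0.0621).

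Cdh5 (ENSMUSG00000031871, chromosome 8, 104101625 to 104144511, plus strand) encodes VE-cadherin, the adherens junction protein by which endothelium is usually defined. Its levels were 9.92, 17.7 and 9.10 CPM in NM1 KO 1 to 3 and 3.66, 8.69 and 9.18 CPM in NM1 WT 1 to 3. NM1 KO 2 was high and NM1 WT 1 low, while the other 4 libraries lay together, so the genotypes overlapped. Its log2 fold change was 0.77 (SE 0.36, adjusted p = 0.318), and it was 0.41 without NM1 KO 2 and 0.45 without NM1 WT 1.

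Pecam1 (ENSMUSG00000020717, chromosome 11, 106654217 to 106750628, minus strand) encodes the adhesion molecule CD31 of endothelium, platelets and many leukocytes. Its levels were 67.4, 67.9 and 67.2 CPM in the knockout libraries and 66.5, 53.0 and 75.8 CPM in the wild type ones. The NM1 KO values lay inside the NM1 WT range. Its log2 fold change was 0.05 (SE 0.14, adjusted p = 0.896), and without NM1 WT 2 it was -0.07. Pecam1 and Esam, both made by megakaryocytes and platelets, had log2 fold changes at different places in the set, 0.05 and 1.17, and the difference between them was not tested.

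Kdr (ENSMUSG00000062960, chromosome 5, 75932827 to 75978458, minus strand) encodes VEGFR2, the main signalling receptor for VEGF-A on endothelium. Its values were 10.4, 20.9 and 11.6 CPM in NM1 KO 1 to 3 and 6.65, 4.98 and 9.84 CPM in NM1 WT 1 to 3. The groups were separated by a narrow gap between NM1 WT 3 and NM1 KO 1. The log2 fold change was 1.00 (SE 0.33, adjusted p = 0.162), and 0.62 without NM1 KO 2.

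Tek (ENSMUSG00000006386, chromosome 4, 94739289 to 94874976, plus strand) encodes Tie2, the angiopoietin receptor, which marrow stem cells carry as well as endothelium. Its values were 5.57, 6.31 and 5.63 CPM in the knockout libraries and 1.36, 1.74 and 3.34 CPM in the wild type ones. The 3 NM1 KO libraries were close to each other and all were above the NM1 WT libraries, of which NM1 WT 3 was the highest. With 20, 30 and 51 counts in the NM1 WT libraries, the log2 fold change of 1.44 carried an SE of 0.40 (adjusted p = 0.119). Tie1 (ENSMUSG00000033191, on the same chromosome at 118471191 to 118490061, minus strand) encodes the related receptor that pairs with Tie2. Levels of Tie1 were 21.9, 25.1 and 18.1 CPM in the knockout libraries and 12.5, 13.7 and 13.1 CPM in the wild type ones. The wild type libraries were tightly grouped and lay below all knockout libraries, and the log2 fold change was 0.73 (SE 0.19, adjusted p = 0.0947). DESeq2 called both Tie receptor genes (adjusted p = 0.0185 for Tek and 0.0227 for Tie1), as did edgeR's likelihood ratio test (0.0358 and 0.0393), whereas limma-voom called neither.

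Clec14a (ENSMUSG00000045930, chromosome 12, 58264720 to 58269290, minus strand) encodes a C-type lectin-like surface protein of endothelium with a part in vessel growth. It was counted 38, 84 and 74 times in NM1 KO 1 to 3 and 4, 6 and 6 times in NM1 WT 1 to 3, or 1.65, 3.87 and 3.47 CPM against 0.271, 0.348 and 0.393 CPM. Each wild type library thus held 2 or 3 read pairs, and the filter on low counts kept the gene through its NM1 KO libraries alone, so among the genes kept it had to differ. Over the groups, 98 read pairs in NM1 KO against 8 in NM1 WT gave a scaled ratio of 8.77, with an exact 95% interval of 4.28 to 20.9 for counting error only. The log2 fold change was 3.12 (SE 0.59, adjusted p = 0.0396). The call was lost without NM1 KO 2 (adjusted p = 0.201), NM1 KO 3 (0.0801), NM1 WT 1 (0.177) or NM1 WT 3 (0.0943). It was also lost in limma-voom (0.125) and when the Y-linked state was added to the model (0.0574). The log2 fold changes in these fits lay between 2.90 and 3.24.

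Stab2 (ENSMUSG00000035459, chromosome 10, 86841198 to 87008025, minus strand) encodes stabilin-2, the hyaluronan scavenger receptor that marks sinusoidal endothelium. It had 23.1, 32.5 and 20.4 CPM in the knockout libraries and 7.60, 10.4 and 21.0 CPM in the wild type ones. NM1 WT 3 reached the NM1 KO range, while the other wild type libraries were well below it. The log2 fold change was 0.96 (SE 0.32, adjusted p = 0.172), and ran from 0.69 without NM1 WT 1 (adjusted p = 0.486) to 1.48 without NM1 WT 3 (0.0567), with 0.74 without NM1 KO 2 (0.54). Exon bases of Stab2 overlap an antisense gene in the annotation, and the strand setting of the counting is not given in the sources used here.

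Emcn (ENSMUSG00000054690, chromosome 3, 137341067 to 137432185, plus strand) encodes endomucin, a sialoglycoprotein of venous and capillary endothelium that is bright on the vessels coupling bone growth to blood supply. Levels of Emcn were 4.87, 4.33 and 3.09 CPM in the knockout libraries and 2.44, 1.62 and 3.80 CPM in the wild type ones. The groups overlapped, with NM1 KO 3 below NM1 WT 3, and the log2 fold change was 0.65 (SE 0.42, adjusted p = 0.477). Eng (ENSMUSG00000026814, chromosome 2, 32646595 to 32682669, plus strand) encodes endoglin, a co-receptor for BMP9 and TGF-beta on endothelium, stem cells, early erythroid cells and macrophages. It had 23.8, 37.9 and 28.2 CPM in the knockout libraries and 22.5, 19.4 and 26.6 CPM in the wild type ones. NM1 KO 1 lay within the wild type range and NM1 KO 3 just above it, while NM1 KO 2 stood clear of it. The log2 fold change was 0.39 (SE 0.20, adjusted p = 0.345), or 0.19 without NM1 KO 2. Eng shares exon bases with Fpgs on the other strand.

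**Figure D2:**
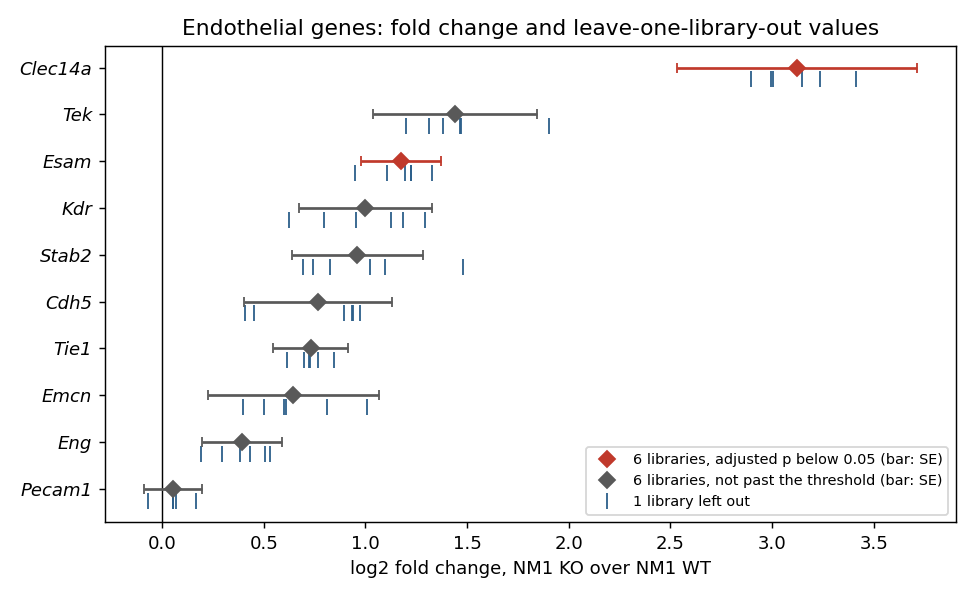
Log2 fold change of NM1 KO over NM1 WT for each of the 10 genes (diamonds, bars are 1 SE, red where the adjusted p was below 0.05), with ticks for the 6 fits that each left out 1 library. Only Pecam1 has a tick below 0, at -0.07, and the ticks of Clec14a run from 2.90 to 3.41.

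Per length, the order of the genes was almost the same in both genotypes. On the scale of CPM per kilobase of annotated exon, the level in NM1 WT was highest for Pecam1 (10.5), followed by Esam (6.09), Eng (5.64), Tie1 (2.66), Cdh5 (1.71), Stab2 (1.49), Kdr (0.793), Emcn (0.485), Tek (0.456) and Clec14a (0.0738). In NM1 KO the level per kilobase was 13.7 for Esam and 10.8 for Pecam1, which changed places at the top, and 1.24 for Tek and 0.758 for Emcn, which changed places lower down. Pecam1 and Esam, at the top of the order in both genotypes, are the genes of the set that platelets also carry. Neighbours whose NM1 WT values per kilobase overlapped were Esam and Eng, Cdh5 and Stab2, Stab2 and Kdr, Kdr and Emcn, and Emcn and Tek.

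Within libraries of the same Y-linked state, the direction could be read separately. Among the 3 libraries with Y-linked counts, NM1 KO 1 and NM1 KO 2 both exceeded NM1 WT 2 for 10 of 10 genes, as for 37.1% of all tested genes. Among the 3 without, NM1 KO 3 exceeded both NM1 WT 1 and NM1 WT 3 for 6 of 10, namely Kdr, Tek, Tie1, Esam, Clec14a and Eng, against 40% of all tested genes. In those 3 libraries the log2 ratio of the means was -0.01 for Emcn and -0.08 for Pecam1, 0.50 for Cdh5 and 0.51 for Stab2, and 0.83 for Esam and 3.38 for Clec14a. Clec14a is counted in both comparisons, though its direction was set by the filter, which kept it through its NM1 KO libraries alone. When the Y-linked state was added to the model, Esam kept its call (log2 fold change 1.06, adjusted p = 0.0434).

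None of the tested ETS factor genes passed edgeR's test. Erg had 21.5 ± 3.26 CPM in NM1 KO against 21.4 ± 2.33 CPM in NM1 WT, and Fli1 80.9 ± 5.79 and 66.0 ± 13.9 CPM (adjusted p = 0.993 and 0.366). Of 11 tested transcription factors of endothelium and stem cells, 0 passed edgeR's test, with a median log2 fold change of 0.03, 1 at an unadjusted p below 0.05, 1 called by DESeq2 and 0 by limma-voom. The smallest p among them belonged to Tal1, a factor of blood and endothelial development (log2 fold change 0.62, adjusted p = 0.0977).

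Ligands and partners of the receptors were examined next. Angpt1, the activating ligand of Tie2 made by stroma and megakaryocytes, rose 2.59-fold, from 12.6, 14.6 and 15.9 CPM in NM1 WT to 27.2, 56.7 and 27.9 CPM in NM1 KO (log2 fold change 1.38, SE 0.27, adjusted p = 0.0441). NM1 KO 2 was again the highest, and even the lowest knockout library stood above every wild type one. Angpt1 was the only one of 7 tested angiopoietin and Tie partner genes to pass, with a median of 0.95. Leaving out NM1 KO 2, NM1 WT 1, NM1 WT 2 or NM1 WT 3 gave it an adjusted p of 0.0982, 0.19, 0.0541 or 0.0945, with log2 fold changes from 0.94 to 1.45. It also missed the threshold in limma-voom (0.0999), with the Y-linked state in the model (0.087) and with upper-quartile scaling (0.0527). Angpt2, the context-dependent antagonist, had 2.84 ± 1.77 and 1.38 ± 1.24 CPM, Ptprb, the phosphatase that restrains Tie2, 9.04 ± 2.61 and 4.98 ± 2.28 CPM, and Svep1, an extracellular protein that binds Tie1, 4.25 ± 0.714 and 1.41 ± 0.597 CPM, NM1 KO first (adjusted p = 0.552, 0.275 and 0.117).

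None of 9 tested VEGF ligands and receptors outside the 10 genes passed, and their median was 0.20. Vegfa, the ligand of VEGFR2, had 30.3 ± 5.47 CPM in NM1 KO against 31.2 ± 4.48 CPM in NM1 WT, and Flt1, the decoy receptor VEGFR1, 13.4 ± 3.97 and 11.7 ± 2.26 CPM. Vegfc, a ligand of VEGFR3, had 4.86 ± 1.41 and 2.20 ± 1.40 CPM, and its receptor gene Flt4, a sinusoid marker, 9.15 ± 2.87 and 7.33 ± 3.75 CPM. Pgf, the placental growth factor, had 2.48 ± 1.54 and 0.681 ± 0.680 CPM, and Nrp2, a neuropilin co-receptor, 22.1 ± 2.21 and 15.6 ± 1.46 CPM (adjusted p = 0.273 and 0.177). In edgeR's test 3 of the 9 had an unadjusted p below 0.05, all higher in NM1 KO, and DESeq2 and limma-voom called 0.

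For endoglin signalling, 0 of 14 tested genes passed edgeR's test, with a median of 0.10, 2 at an unadjusted p below 0.05, 1 called by DESeq2 and 0 by limma-voom. Gdf2 (BMP9) and Bmp10, the circulating ligands of this pathway, had 0 counts in all 6 libraries, which allows up to 3 read pairs in each. Acvrl1, the receptor ALK1 on which endoglin acts, had 43.7 ± 2.05 CPM in NM1 KO against 55.2 ± 17.5 CPM in NM1 WT (adjusted p = 0.435). Id3, a target gene of the pathway, had 38.8 ± 10.01 and 22.6 ± 0.244 CPM, with no overlap (log2 fold change 0.78, adjusted p = 0.0786), and Bmp6, a ligand made by sinusoidal endothelium, 6.03 ± 2.50 and 2.70 ± 0.625 CPM (adjusted p = 0.187). Of the 14 genes 9 were positive and 5 negative, and Id1 and Id2 had log2 fold changes of -0.27 and -0.01. Of 12 other junction genes, 0 passed in edgeR, DESeq2 or limma-voom, and 4 had an unadjusted p below 0.05 in edgeR, 2 in each direction, with a median of 0.25. Cldn5, the endothelial claudin, had 14.05 ± 4.06 and 7.95 ± 4.73 CPM (adjusted p = 0.354), Pcdh12, an endothelial protocadherin, 0.911 ± 0.171 and 0.210 ± 0.0661 CPM, and Cgnl1, a tight junction adaptor, 3.22 ± 1.20 and 7.62 ± 3.37 CPM (adjusted p = 0.185 and 0.173). The filter on low counts kept Pcdh12 through its NM1 KO libraries alone, so its direction was set by the filter. It is among the 2 higher in NM1 KO at the unadjusted p.

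Sinusoid-enriched and arterial genes had medians of opposite sign, and the difference between the lists was not tested. All 12 sinusoid-enriched genes had positive log2 fold changes, with a median of 0.96, while 10 of 13 tested arterial genes were negative, with a median of -0.34. Of the sinusoid-enriched genes 2 rose, Mrc1, the mannose receptor, from 26.6 ± 6.89 to 73.4 ± 31.3 CPM, and Vcam1, an adhesion molecule for blood cells, from 131 ± 27.9 to 342 ± 143 CPM (adjusted p = 0.0396 each), and 0 fell. Both are also made by marrow macrophages, and Vcam1 by stroma. Neither passed without NM1 KO 2 (adjusted p = 0.0846 for Mrc1 and 0.0955 for Vcam1), NM1 WT 1 (0.17 and 0.185) or NM1 WT 3 (0.0761 and 0.107), nor Vcam1 without NM1 KO 1 (0.0614). Limma-voom called 0 of the 12 (0.0731 and 0.0653 for this pair) and DESeq2 7, and Mrc1 missed the threshold with the Y-linked state in the model (0.0588). In edgeR 9 of the 12 had an unadjusted p below 0.05, all higher in NM1 KO, against 16.8% of all tested genes in either direction. Stab1, the sinusoidal and macrophage partner of Stab2, had 24.3, 22.1 and 14.2 CPM in the knockout libraries and 10.5, 10.03 and 13.4 CPM in the wild type ones, which did not overlap (adjusted p = 0.119). Of the arterial genes 1 rose, Fbln5, an elastic fibre protein of vessel walls and stroma (log2 fold change 1.16, adjusted p = 0.0447), and 0 fell, against 3 lower and 1 higher at an unadjusted p below 0.05. The Fbln5 call was lost when any 1 library other than NM1 KO 3 was left out (adjusted p from 0.0568 to 0.162), and in limma-voom (0.0854), upper-quartile scaling (0.0575) and the model with the Y-linked state (0.0993). Without NM1 WT 2 there were 2 arterial genes that fell. Unc5b, a netrin receptor, had 5.83 ± 2.00 CPM in NM1 KO against 14.9 ± 8.06 CPM in NM1 WT (adjusted p = 0.14). The mean log2 CPM of the sinusoid-enriched list was 4.71, 4.97 and 4.35 in NM1 KO 1 to 3 and 3.78, 3.59 and 3.99 in NM1 WT 1 to 3, without overlap. That of the arterial list was 2.17, 2.25 and 2.08 against 2.66, 1.93 and 2.50, so the genotypes overlapped, with NM1 WT 2 below every NM1 KO library. Neither mean was tested, and the part of other marrow cells in the values of either list was not tested.

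Among 24 further pan-endothelial genes 22 were positive, with a median of 0.61. In edgeR 9 of the 24 had an unadjusted p below 0.05 (16.8% of all tested genes), and DESeq2 called 4 and limma-voom 1. Vwf, von Willebrand factor, of endothelium and megakaryocytes alike, rose from 79.1 ± 6.87 to 180 ± 57.4 CPM (adjusted p = 0.026), and 0 fell. The Vwf call was lost without NM1 WT 1 (adjusted p = 0.129) or NM1 WT 3 (0.0616). Myct1, an endothelial surface protein, had 25.1 ± 6.11 and 12.4 ± 1.74 CPM without overlap (adjusted p = 0.0513). Notch1 and Notch4, the Notch receptors of endothelium, had log2 fold changes of 0.05 and 0.11, and 0 of the 2 passed in edgeR, also at an unadjusted p below 0.05, in DESeq2 or in limma-voom.

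**Figure D3:**
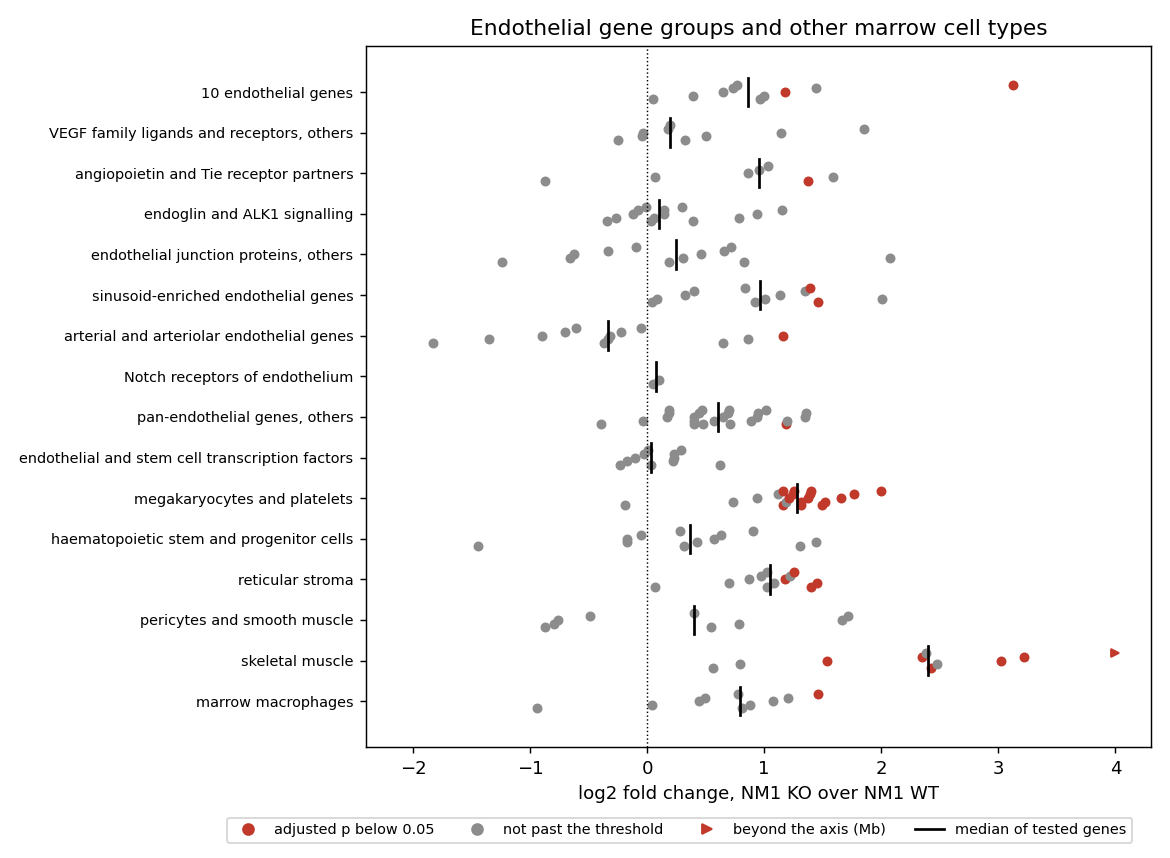
Log2 fold change of NM1 KO over NM1 WT for every tested gene of each list, with called genes in red, others in grey and the list median as a black line, and an arrowhead at the right edge for Mb, whose wild type libraries were at 0. Mb, Myl1, Pcdh12 and Clec14a were kept by the filter on low counts through their NM1 KO libraries alone. The medians lie at 0.86 for the 10 endothelial genes, 0.96 for sinusoid-enriched genes, -0.34 for arterial genes and 1.28 for megakaryocyte and platelet markers.

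Calls were also found among markers of other cells that touch the vessels or share these genes. Of 20 megakaryocyte and platelet markers 15 rose and 0 fell, with a median of 1.28, and 9, 3 or 4 rose when NM1 KO 2, NM1 WT 1 or NM1 WT 3 was left out. DESeq2 called 17, limma-voom 7 and the model with the Y-linked state 9. Their summed level was 2738 to 5465 CPM in NM1 KO against 1426 to 1797 CPM in NM1 WT. NM1 KO 2 was the highest NM1 KO library, as for 9 of the 10 endothelial genes. The markers with the smallest p were Mpig6b, an inhibitory platelet receptor (log2 fold change 1.31), Clec1b, the podoplanin receptor (1.52), Mmrn1, the carrier of factor V (1.77), and Tubb1, the platelet tubulin (1.38). Esam, with 1.17, is a gene shared by endothelium, megakaryocytes and platelets, and stem and progenitor cells. How much each gave to its level was not tested. Clec14a, Kdr, Cdh5 and Stab2, the members mostly kept to endothelium, had log2 fold changes of 3.12, 1.00, 0.77 and 0.96. Of these Clec14a alone passed, and it had been kept by the filter through its NM1 KO libraries alone. The adjusted p of Kdr, Cdh5 and Stab2 was 0.162, 0.318 and 0.172.

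Of 12 reticular stroma markers 4 rose and 0 fell, with a median of 1.05, and 1, 0 or 1 rose when NM1 KO 2, NM1 WT 1 or NM1 WT 3 was left out. DESeq2 called 7 and limma-voom 1. The 4 were Cxcl12, the niche chemokine (log2 fold change 1.40), Kitl, stem cell factor, which endothelium also makes (1.45), Lepr, the leptin receptor (1.26), and Gas6, a ligand of TAM receptors (1.18). Gas6 was at the threshold (adjusted p = 0.0498) and missed it under RLE scaling (0.0509), upper-quartile scaling (0.061), the 1 CPM filter (0.0502) and the model with the Y-linked state (0.117). The summed stromal level was 1076 to 2007 CPM in NM1 KO against 514 to 749 CPM in NM1 WT. Of 10 macrophage markers 1 rose, Mrc1 (6 in DESeq2, 0 in limma-voom), with a median of 0.80 and summed levels of 555 to 987 and 379 to 499 CPM, and Cd5l, a secreted macrophage protein, did not pass (adjusted p = 0.0516). Of 12 skeletal muscle markers 10 were tested and 6 rose (3, 3, 2, 0 or 4 when NM1 KO 1, NM1 KO 2, NM1 KO 3, NM1 WT 1 or NM1 WT 3 was left out, 7 in DESeq2 and 2 in limma-voom), with summed levels of 71.2 to 93.0 CPM in NM1 KO against 17.2 to 29.4 CPM in NM1 WT. Tnnt3, a fast muscle troponin, had 12.5 ± 2.82 and 2.46 ± 1.23 CPM, and Tnni2, its inhibitory partner, 12.9 ± 2.54 and 4.42 ± 0.554 CPM. Myl1, a myosin light chain, had 3.24 ± 1.07 and 0.344 ± 0.0975 CPM, and Mb, myoglobin, 2.01 ± 0.579 CPM in NM1 KO and 0 counts in every NM1 WT library. The filter on low counts kept Myl1 and Mb through their NM1 KO libraries alone, so their direction was set by the filter. Both are among the 6 that rose. Muscle carries its own vessels, and the part of muscle, stroma or macrophages in the endothelial values was not tested.

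The remaining lists near the vessels held no call in edgeR's test. Of 12 stem and progenitor cell markers 0 passed (5 at an unadjusted p below 0.05, 2 in DESeq2, 0 in limma-voom), with a median of 0.37 and summed levels of 287 to 321 CPM in NM1 KO against 234 to 283 CPM in NM1 WT. Those with the smallest p were Slamf1, the stem cell marker CD150 (log2 fold change 0.90), and Mycn (1.44). Of the 12 markers 8 were positive and 4 negative, Mecom (-1.45) and Flt3 (-0.17) among the negative ones. Of 9 tested markers of pericytes and smooth muscle 0 passed (5 at an unadjusted p below 0.05, 1 in DESeq2, 0 in limma-voom), with summed levels of 57.1 to 84.9 and 44.2 to 69.3 CPM that overlapped. Abcc9, a pericyte potassium channel subunit, had 11.8 ± 3.65 and 3.70 ± 1.55 CPM (adjusted p = 0.0548), and Acta2, smooth muscle actin, 8.08 ± 1.60 and 13.7 ± 2.02 CPM (adjusted p = 0.147). Among lymphatic markers Prox1, the defining factor of that endothelium, lay at or below 0.918 CPM in every library, and Lyve1, which macrophages and sinusoids also make, had 4.71 ± 1.20 and 4.59 ± 1.45 CPM. In all, 0 of 3 tested lymphatic markers passed in edgeR, DESeq2 or limma-voom (1 at an unadjusted p below 0.05). Pdpn, podoplanin, which stroma also makes, had 3.68 ± 2.59 and 10.3 ± 6.41 CPM, and Reln, reelin, 16.2 ± 4.55 and 14.9 ± 4.15 CPM.

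**Figure D4:**
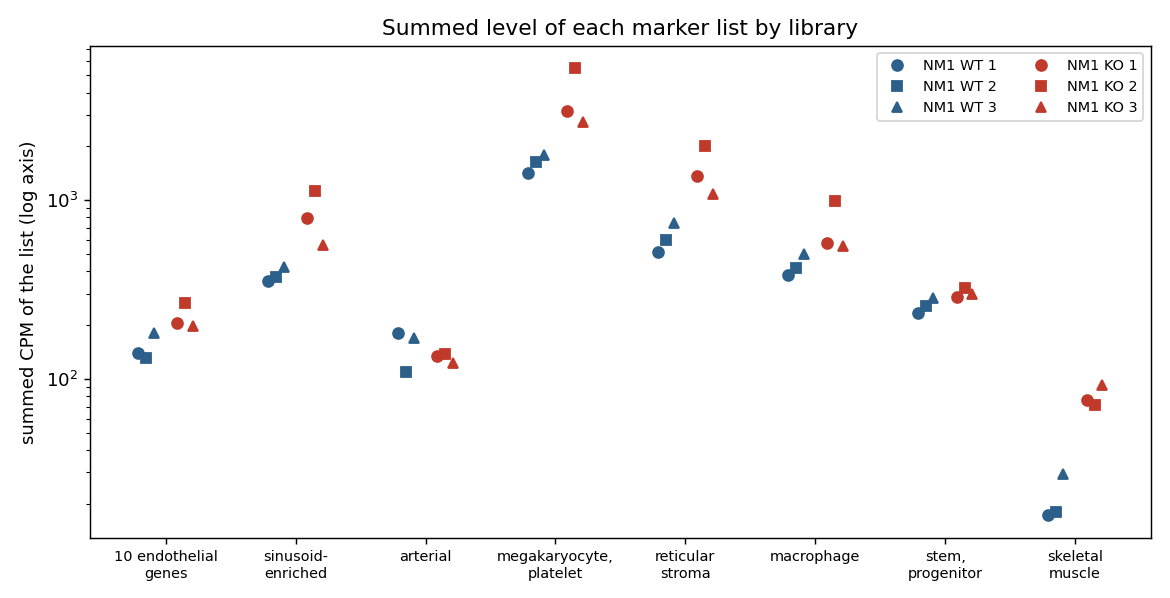
Summed CPM (log axis) of the 10 endothelial genes and 7 marker lists in each library, NM1 WT in blue and NM1 KO in red. The 10 endothelial genes summed to 197 to 268 CPM in NM1 KO against 132 to 182 CPM in NM1 WT, and NM1 KO 2 is the highest NM1 KO library for every list shown except skeletal muscle.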

How the data were processed

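Unsorted marrow RNA of 6 mice was sequenced, 3 per genotype and 1 library per mouse. The deposited files hold raw counts per Ensembl gene, with no normalisation. Per the submitters' processing notes, the authors used HISAT2 2.0.4, HTSeq, Trimmomatic 0.36, SAMtools 0.1.19 and FastQC, with the genome build GRCm38 (mm10). The counting mode and annotation version, and whether strand was used, were not given in the sources used here, so overlapping and antisense genes cannot be separated.

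Of 46603 listed genes, 46091 matched GENCODE M21 for names, positions and exon lengths. Counts were fitted across all genes with edgeR 4.0.16 in R 4.3.3 (glmQLFit and glmQLFTest, genotype as the only term) after filterByExpr, which needs about 10 counts in each of 3 libraries and left 15069 genes, and TMM scaling. P-values were adjusted by Benjamini-Hochberg across every tested gene, and 0.05 was the threshold. SE is the log2 fold change divided by the root of the F statistic. The pipeline was tested on simulated counts. Intervals cover counting error only, since no molecular identifiers are stated.

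Each gene of the set is named, with Myo1c, the receptors' ligands and partners, and from each other list the called genes ranked by p, at most 4, or the 2 of smallest p where fewer than 2 were called. Of the genes so named, 1 is not reported here. The genes and lists were chosen with earlier results of these data known. Erg, Bmp10, Prox1 and a few others were named after their values were seen. Alternatives were DESeq2 1.42.0, limma-voom (limma 3.58.1), edgeR's likelihood ratio test, scaling by total counts, RLE or upper quartiles, no filter or one at 1 CPM, a replicate block, halved counts, the Y-linked state as a covariate, each library left out, and a looser threshold. Thinned counts and a median without Clec14a were added after the data were seen. No set test was run.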

Additional observations from a re-analysis of the deposited data

How the results depend on the processing

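All 10 genes kept a positive log2 fold change in all 18 other fits except Pecam1, which ran from -0.071 (without NM1 WT 2) to 0.169 (without NM1 WT 3) with 1 library left out, and the median of the set stayed between 0.62 and 1.12. How many of the 10 passed depended on the test and on single libraries. Against 2 in the fit reported above, 6 passed with no low-count filter, 4 with the likelihood ratio test, 6 with DESeq2, 0 in limma-voom and 1 when the Y-linked state was a model term, and 0 to 2 with 1 library left out (0 without NM1 KO 2, NM1 WT 1 or NM1 WT 3). The count over all genes, 117, moved likewise, to 1138 with no low-count filter, 541 with the likelihood ratio test, 794 with DESeq2, 37 with limma-voom, 60 with the Y-linked state, 357 at an adjusted p below 0.10 and 26 to 344 with 1 library left out. The cause was not tested. The replicate block gave 421 calls over all genes, with the same 2 of the 10 called. The labels give no reason for pairing, and same-numbered libraries deviated together with correlations of 0.06, 0.12 and 0.06, each the best match of its library. Clec14a had 2 or 3 read pairs in each NM1 WT library, and kept its call when counts were thinned to the smallest total (3.14, adjusted p = 0.0337) or halved (3.09, 0.0371). Both fits used the filter rule that had kept the gene through its NM1 KO libraries alone, so they are no separate support. The Clec14a call was lost in limma-voom (adjusted p = 0.125) and with the Y-linked state in the model (0.0574). It was also lost without NM1 KO 2, NM1 KO 3, NM1 WT 1 or NM1 WT 3.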

Other observations

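Bone and blood cell markers gave a frame for the vessel genes. Of 9 tested markers of bone-forming cells 1 rose: Col1a2, which encodes a type I collagen chain, went from 42.5 ± 5.93 to 179 ± 50.3 CPM (adjusted p = 0.00077), and Col1a1, its partner chain, had 207 ± 10.7 and 107 ± 39.1 CPM in NM1 KO and NM1 WT (adjusted p = 0.0786). All 10 neutrophil markers had negative log2 fold changes, with a median of -0.47, but 0 passed edgeR's test (6 at an unadjusted p below 0.05, 4 in DESeq2, 0 in limma-voom). Ly6g, a surface marker of neutrophils, had 190 ± 24.4 and 279 ± 64.0 CPM, and S100a9, a subunit of calprotectin, 13075 ± 1593 and 18176 ± 2857 CPM. Of 10 erythroid markers 9 were positive, with a median of 0.32, and 0 passed edgeR's test (5 at an unadjusted p below 0.05, 1 in DESeq2, 0 in limma-voom). Ermap, a red cell adhesion protein, had 477 ± 77.2 and 358 ± 12.7 CPM.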
